A study of Mus musculus with 141 samples.

Results

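The miRNAs of the imprinted Dlk1-Dio3 domain were described as a set of 90 mature miRNAs, the 5p and 3p arms of 45 hairpins, out of 1907 mature miRNAs listed for each brain region. They were chosen by hairpin number alone, from the known content of the cluster, and not by their measured values. The libraries came from male C57BL/6J mice that drank water with 3 g/L saccharine from 6 weeks of age, and each library held tissue punches pooled from 4 animals of the interpeduncular nucleus (IPN), the medial habenula (MHb) or the nucleus accumbens (NAc). The study asked what chronic nicotine and its withdrawal do to RNA in the habenulo-interpeduncular circuit, with the NAc as a region outside it. Control mice received tartaric acid for 6 weeks (TA), Nic mice received 200 ug/ml nicotine as the tartrate for 6 weeks, and NAWD mice had their nicotine replaced by tartaric acid for 48 hours. NLWD mice were withdrawn for 4 weeks, and their own controls (TAL) drank tartaric acid for 10 weeks. There were 5 small RNA libraries for each of the 5 groups in each region, 75 in all. Because a library is a pool, the tests measure the spread between pools and not between animals.

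The Dlk1-Dio3 domain is a parentally imprinted stretch of distal mouse chromosome 12. The chromosome inherited from the father expresses the protein genes Dlk1, Rtl1 and Dio3, and the chromosome inherited from the mother expresses the long noncoding RNAs Meg3, Rian and Mirg together with a transcript antisense to Rtl1 and the miRNAs, which are cut from these long transcripts. The miRNAs are rich in brain. Those that lie antisense to Rtl1 pair perfectly with its mRNA and can direct its cleavage, while most others act through a short seed, the bases 2 to 8 of the mature strand, that pairs with target mRNAs. A hairpin yields a 5p and a 3p strand, of which usually a single strand is retained by Argonaute.

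Of the 90 members, 86 were matched by name in the RefSeq miRNA annotation of GRCm38.p6, and miR-376c-3p, miR-485-5p, miR-487b-3p and miR-539-3p are named only. All 86 lay on the plus strand of chromosome 12, between positions 109563710 and 109747949, a span of 184240 bases. In genome order, 6 hairpins (12 members, 109563710 to 109586387) lay on the Meg3 side, 5 hairpins (10 members, 109590459 to 109595387) lay antisense to the exon of Rtl1, 2 hairpins (4 members, 109611521 to 109618326) lay in introns of Rian, and 32 hairpins (64 members, 109709065 to 109747949) lay on the Mirg side. On the Mirg side 8 members overlapped an exon of Mirg, 17 an intron of Mirg, and 35 fell between annotated genes. On the Meg3 side 2 members overlapped an exon of Meg3 and 10 fell between genes. Mature lengths ran from 19 to 26 bases, and GC content from 23.8% to 77.3% with a median of 50%, against 52.2% over the 1623 listed miRNAs that were matched.

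The 86 matched members carried 83 different seeds, of which 3 were shared by a pair of members each. The sequences of these pairs are printed 5′ to 3′ with the seed in capitals, because a shared seed is the basis for shared target sites.
miR-379-3p: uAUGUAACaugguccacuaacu
miR-411-3p: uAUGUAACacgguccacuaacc
miR-410-5p: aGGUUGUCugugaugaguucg
miR-494-5p: aGGUUGUCcguguugucuucuc
miR-376b-5p: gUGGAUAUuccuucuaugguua
miR-376c-5p: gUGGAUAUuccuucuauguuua

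The members on which the results turn are printed next, in the same way. The first pair are the arms of miR-127 and the second the arms of miR-136, both antisense to Rtl1, followed by miR-434-3p, the most abundant member, also antisense to Rtl1.
miR-127-5p: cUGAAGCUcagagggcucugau
miR-127-3p: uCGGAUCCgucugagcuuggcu
miR-136-5p: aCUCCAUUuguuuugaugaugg
miR-136-3p: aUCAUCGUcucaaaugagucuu
miR-434-3p: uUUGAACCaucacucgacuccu

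The members that differed after acute withdrawal in the IPN or MHb follow. miR-540-5p and miR-337-5p are from the Meg3 side, both arms of miR-341 from Rian, and miR-329-5p and miR-495-3p from the Mirg side. None of these seeds was shared with another member.
miR-540-5p: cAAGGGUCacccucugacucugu
miR-337-5p: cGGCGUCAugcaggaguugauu
miR-341-5p: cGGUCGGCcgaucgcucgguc
miR-341-3p: uCGGUCGAucggucggucggu
miR-329-5p: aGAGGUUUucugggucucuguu
miR-495-3p: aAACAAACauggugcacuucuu

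Levels were measured as RPM, the miRNA reads of a library rescaled to a fixed total, so a value is a share of those reads. Depth ran from 2788281 to 33690462 miRNA reads per library. In the MHb it was 2788281 to 4452432 in TA libraries and 5520204 to 8751598 in NAWD libraries, and in the IPN 6459074 to 12393851 and 13478993 to 20003529, so that in both regions every NAWD library was deeper than every TA library. The mRNA libraries of the same tissue held a marker chosen for each region. Tac2, a tachykinin of MHb neurons, was at 437 to 797 TPM in MHb of TA mice. Otp, a transcription factor, was at 12.4 to 24.5 TPM in IPN, and Adora2a, an adenosine receptor of striatal neurons, at 190 to 429 TPM in NAc. Their levels in the other regions are not given, so these values do not show how cleanly a region was punched. Punches also held other cells. The summed choroid plexus miRNAs miR-204-5p and miR-211-5p reached 12099 to 22509 RPM in the MHb of TA mice, against 2882 to 3930 RPM in the IPN and 671 to 989 RPM in the NAc. Fewer cells of a type and less RNA per cell cannot be told apart in these bulk samples.

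The cluster was a substantial part of the miRNA pool in all 3 regions. In TA mice the 90 members together made up 6.13 ± 0.39% (SD, n = 5), 5.17 ± 0.38% and 6.52 ± 0.44% of miRNA reads in IPN, MHb and NAc. In each region 82 members averaged at least 1 RPM, and 13, 11 and 18 members in IPN, MHb and NAc averaged at least 1000 RPM. A few members held most of these reads, since the 6 most abundant accounted for 58.3%, 56.4% and 54.4% of the cluster in IPN, MHb and NAc.

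The most abundant member in every region was miR-434-3p. Its values in TA libraries were 13434 to 14984 RPM in the IPN (mean 14127), 8221 to 9975 RPM in the MHb (mean 9186) and 7736 to 14561 RPM in the NAc (mean 11919). IPN libraries were all above MHb libraries, while NAc libraries overlapped both. miR-136-3p, from the same antisense transcript, averaged 6933 ± 1017, 5309 ± 695 and 7863 ± 1069 RPM in IPN, MHb and NAc. IPN libraries overlapped both other regions, and every NAc library was above every MHb library. The remaining members of the top 6 were miR-382-5p, miR-379-5p, miR-541-5p and miR-127-5p in the IPN, miR-127-3p, miR-379-5p, miR-127-5p and miR-382-5p in the MHb, and miR-379-5p, miR-127-5p, miR-381-3p and miR-300-3p in the NAc. At the other end, the lowest mean of a member was 0.0552, 0.156 and 0.132 RPM in these regions.

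**Figure D1:**
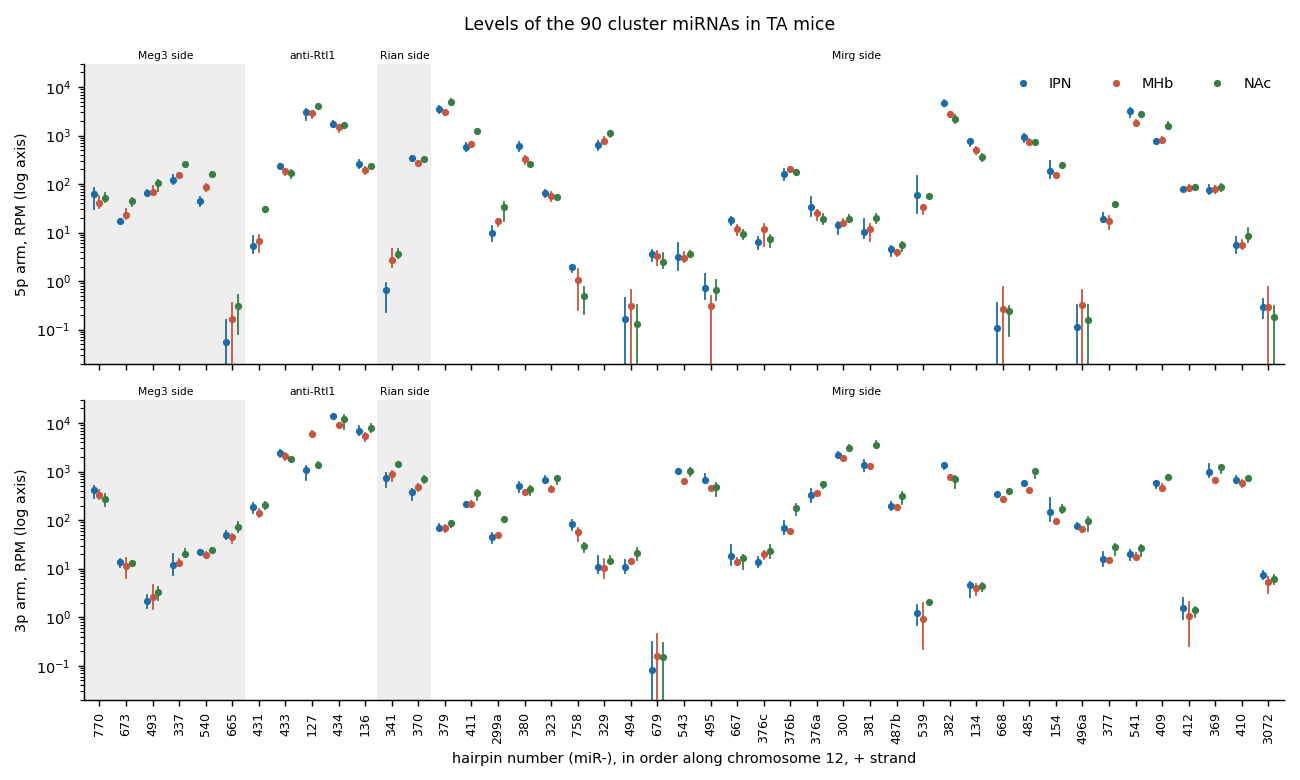
Mean RPM of the 90 members in TA libraries on a log axis, by genome order and position group, for IPN, MHb and NAc, with 5p arms above, 3p arms below and lines from the lowest to the highest of 5 libraries. Values of 0 fall below the axis, which starts at 0.02 RPM. miR-434-3p is the highest point in each region, at 14127, 9186 and 11919 RPM.

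Regions were first compared in TA mice, with limma on log2(RPM + 1) and Benjamini-Hochberg adjustment over all miRNAs tested, called at an adjusted p under 0.01. Many cluster members were lower in the MHb than in the NAc. Of 88 members tested, 38 were lower in the MHb and 3 were higher, against 14.3% of all 859 miRNAs called lower and 23.3% called higher. The median log2 difference was -0.39 over the members and 0.10 over all miRNAs tested. Lower members came from each position group, with 5 of 11 on the Meg3 side, 4 of 10 antisense to Rtl1, 2 of 4 in Rian and 27 of 63 on the Mirg side. Summed neuronal miRNAs (4 of 4 listed) were 175640 to 201651 RPM in the MHb and 263491 to 293420 RPM in the NAc of TA mice, also lower in the MHb and without overlap, and their part in the result was not tested.

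Members of this list differed by several fold between MHb and NAc. miR-381-3p had 1432, 1307, 1382, 1349 and 1165 RPM in TA libraries of the MHb and 3614, 3561, 4197, 3354 and 3292 RPM in the NAc. Every NAc library exceeded every MHb library, and the log2 difference was -1.44 ± 0.11 (SE) with an adjusted p of 6.3e-10 from limma. miR-431-5p, one of the strands directed against Rtl1, was 3.95 to 8.76 RPM in the MHb and 26.9 to 34.1 RPM in the NAc (log2 difference -2.09 ± 0.20, adjusted p = 1.6e-08 from limma). Its groups did not overlap, and the IPN, at 3.76 to 8.67 RPM, lay with the MHb. miR-376b-3p and miR-485-3p were lower in the MHb by 1.53 and 1.28 on the log2 scale, with means of 60.5 against 180 RPM and 416 against 1027 RPM. The 3 members that were higher in the MHb were miR-127-3p (log2 difference 2.17), miR-758-3p (0.93) and miR-134-5p (0.47), the last known in rat hippocampal neurons to limit dendritic spine size.

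Between IPN and NAc of TA mice, 12 members were higher in the IPN and 29 lower, of 88 tested. All miRNAs tested were called higher at 21.2% and lower at 14.4%. The median log2 difference was -0.24 over the members and 0.11 over all miRNAs, and with quantile normalization, edgeR or DESeq2 the calls were 8 and 39, 7 and 41, or 9 and 40. The members higher in the IPN included miR-382-5p, at 5383, 5109, 4443, 4589 and 4097 RPM against 2673, 2302, 1793, 2159 and 1995 RPM in the NAc (log2 difference 1.12 ± 0.11, adjusted p = 1.1e-08 from limma). IPN libraries all exceeded NAc libraries, as they did for 21.1% of all miRNAs tested, while for 13.2% all lay below. miR-540-5p was lower in the IPN by 1.87 on the log2 scale, at 36.1 to 54.9 RPM against 150 to 179 RPM, and the groups did not overlap. Between MHb and IPN, 4 members were higher in the MHb and 13 lower, against 11.5% and 11.4% of all miRNAs tested, with a median of -0.17 over the members and -0.03 over all.

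The TAL libraries gave a repeat of these comparisons in other, older mice, a repeat chosen after the values had been seen. The deficit of the cluster in the MHb against the NAc was present again. There, 31 of 90 members were lower in the MHb and 2 higher, against 11.9% and 19.2% of all 1034 miRNAs tested, and the median over the members was -0.38. In both sets of mice 26 members were called in the same direction, which is 63.4% of the 41 called in TA and 78.8% of the 33 called in TAL, and 0 were called in opposite directions. They included miR-381-3p, miR-485-3p, miR-431-5p, miR-376b-3p, miR-411-5p and miR-299a-3p.

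Differences that involved the IPN changed between the 2 sets of mice. In TAL mice 38 members were higher in the IPN than in the NAc and 20 lower, with 39.7% and 16.5% of all miRNAs called. Of the members tested in both sets, 13 were called in the same direction, 31.7% of those called in TA and 22.8% of those called in TAL, and 12 in opposite directions, the latter including miR-382-5p, miR-540-5p, miR-376a-3p and miR-376b-3p. For the MHb against the IPN in TAL mice, 10 members were higher and 50 lower, with 17.7% and 33.9% of all miRNAs called, and 4 members were called in the same direction (23.5% of those called in TA and 6.78% in TAL) and 5 in opposite directions. The highest region was the NAc for 53 members, the IPN for 30 and the MHb for 7 in TA mice, but the IPN for 51, the NAc for 31 and the MHb for 8 in TAL mice. For 43 of 90 members the highest region was the same in both. These counts rank means alone, and for many members the libraries of the highest and second region overlapped. Members under 1 RPM were included, and no such count over all miRNAs is given for comparison.

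**Figure D2:**
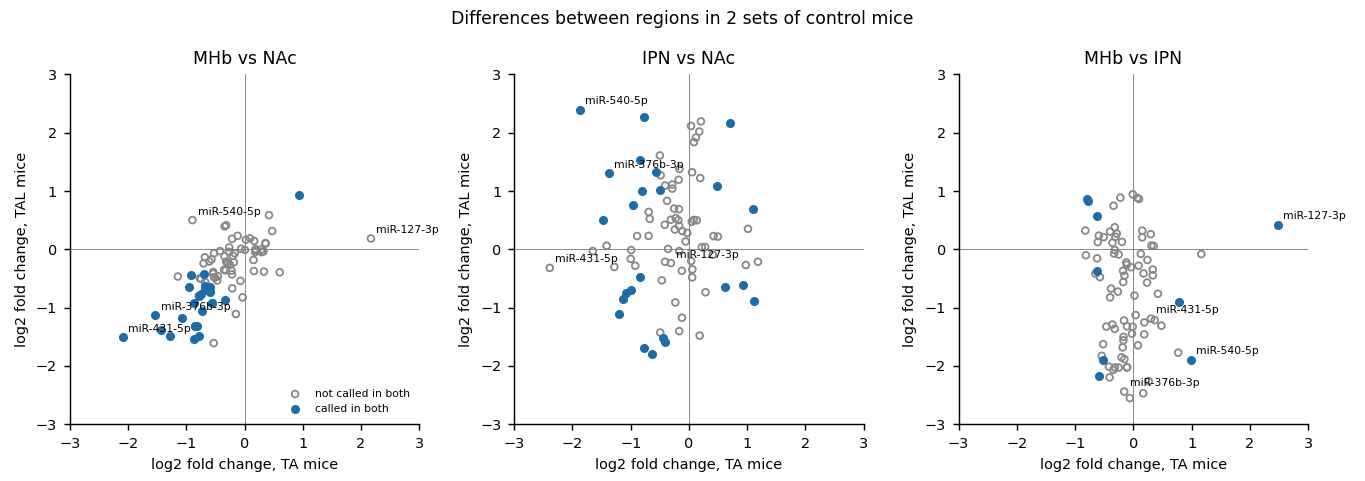
log2 differences between regions for each member tested, in TA mice on the horizontal axis and TAL mice on the vertical axis, in a panel for each pair of regions, with filled points for members called in both. The MHb and NAc panel has 26 members called in the same direction and 0 in opposite directions, while the IPN and NAc panel has 13 and 12.

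TAL libraries were then compared with TA libraries of the same region, a comparison made after the data were seen and without factors of unwanted variation. TAL and TA mice differed in age and in the length of treatment, and the labels name no library batch, so that age, treatment length and batch cannot be told apart. Depth differed too. It was 12590437 to 26542631 miRNA reads in TAL and 2788281 to 4452432 in TA libraries of the MHb. In the NAc it was 23308193 to 33690462 and 9687205 to 13526573, so that every TAL library was deeper in both regions. In the IPN depth overlapped. The part of depth in the differences was not tested. In the IPN, 49 of 88 members were higher in TAL and 15 lower, with 34.9% and 14.9% of all 981 miRNAs called. The median log2 difference was 0.59 over the members and 0.14 over all miRNAs. With quantile normalization 38 were higher and 21 lower, the median over the members was 0.21 and that over all miRNAs -0.03. The Mirg side had 38 of 63 members higher and 13 lower. Lack of overlap was common here. Every TAL library was above every TA library for 50 members and 32.8% of all miRNAs, and below for 13 members and 13.5%.

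miR-540-5p moved most in the IPN. It stood at 36.1, 40.8, 39.2, 54.9 and 48.1 RPM in TA libraries and at 434.3, 322, 364, 424 and 562 RPM in TAL libraries. The groups were far apart, with a log2 difference of 3.23 ± 0.16 and an adjusted p of 1.6e-09 from limma. In the NAc the same member went the other way, from 150 to 179 RPM in TA to 56.8 to 123 RPM in TAL (log2 difference -1.05 ± 0.17, adjusted p = 0.00085 from limma), and the groups again did not overlap. miR-376a-3p rose in the IPN from 242 to 440 RPM to 1670 to 3192 RPM, with a log2 difference of 2.69 ± 0.20. miR-136-5p, chosen here after its values were seen, rose from 212 to 319 RPM in TA to 686 to 1226 RPM in TAL, by 1.75 on the log2 scale. miR-337-3p, miR-376b-3p, miR-539-3p, miR-377-3p, miR-665-3p and miR-134-3p rose by 2.37, 2.34, 2.09, 2.00, 1.96 and 1.90 on the log2 scale. Among the members that fell were miR-382-5p (fell by 1.32) and miR-541-5p (fell by 1.101), 2 of the most abundant members of TA libraries.

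Fewer members changed elsewhere. In the MHb 8 of 89 were higher in TAL and 3 lower (3.23% and 1.45% of all miRNAs), and in the NAc 7 of 90 were higher and 1 lower (5.05% and 1.75%). Both counts depended on single libraries. In the NAc 23 members were called without TAL library 4 and 5 without TAL library 1, and with quantile normalization 2 were higher and 5 lower. In the MHb the count was 7, 6 and 5 without TAL library 2, 3 or 4 and 5 and 4 without TA library 2 or 4, and with quantile normalization 0 were higher and 2 lower. Markers of other cells moved with the IPN difference. The summed oligodendrocyte miRNAs miR-219a-5p and miR-338-3p were 3133 to 5476 RPM in TA and 21259 to 30625 RPM in TAL libraries of the IPN, and the microglial miRNAs miR-142a-3p and miR-223-3p were 49.1 to 113 RPM and 163 to 232 RPM. Neuronal miRNAs (4 of 4 listed) were 191916 to 212382 RPM in TA and 151629 to 178743 RPM in TAL. By contrast Mbp mRNA, which encodes a myelin protein, was 3314 to 6609 TPM in TA and 580 to 740 TPM in the 3 TAL libraries. In the NAc neuronal miRNAs were 263491 to 293420 RPM in TA and 213847 to 248319 RPM in TAL, and oligodendrocyte miRNAs 4225 to 4855 RPM and 2017 to 3747 RPM, neither with overlap. The part of these cells in the differences was not tested.

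The smallest p between TAL and TA in the MHb belonged to miR-127-3p. In the MHb of TA mice miR-127-3p had 6243, 6840, 5101, 6675 and 5353 RPM, and in TAL mice 1265, 1305, 1250, 1384 and 1383 RPM. All TAL libraries were below all TA libraries (log2 difference -2.19 ± 0.09, adjusted p = 2.7e-12 from limma). The 5p arm did not follow, with 2268 to 3222 RPM in TA and 2970 to 4538 RPM in TAL. As a result the share of miR-127-5p in both arms was 29.7% to 38.7% in TA, 29.8% to 32.3% in Nic and 29.6% to 31.2% in NAWD libraries of the MHb, but 69.5% to 78.4% in TAL and 67.0% to 73.5% in NLWD libraries. In the IPN and the NAc the share was 73.0% to 74.9% and 74.2% to 76.6% in TA libraries and stayed at 65.5% or more in every library. The 15 MHb libraries of the TA, Nic and NAWD groups thus stood apart from all others for this hairpin, and the MHb lead of miR-127-3p in TA mice was not called against the NAc in TAL mice (log2 difference 0.18 ± 0.13, adjusted p = 0.27 from limma). Against the IPN it was called in TAL mice too, with a log2 difference of 0.42 ± 0.13 (adjusted p = 0.0063 from limma), compared with 2.48 in TA mice.

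**Figure D3:**
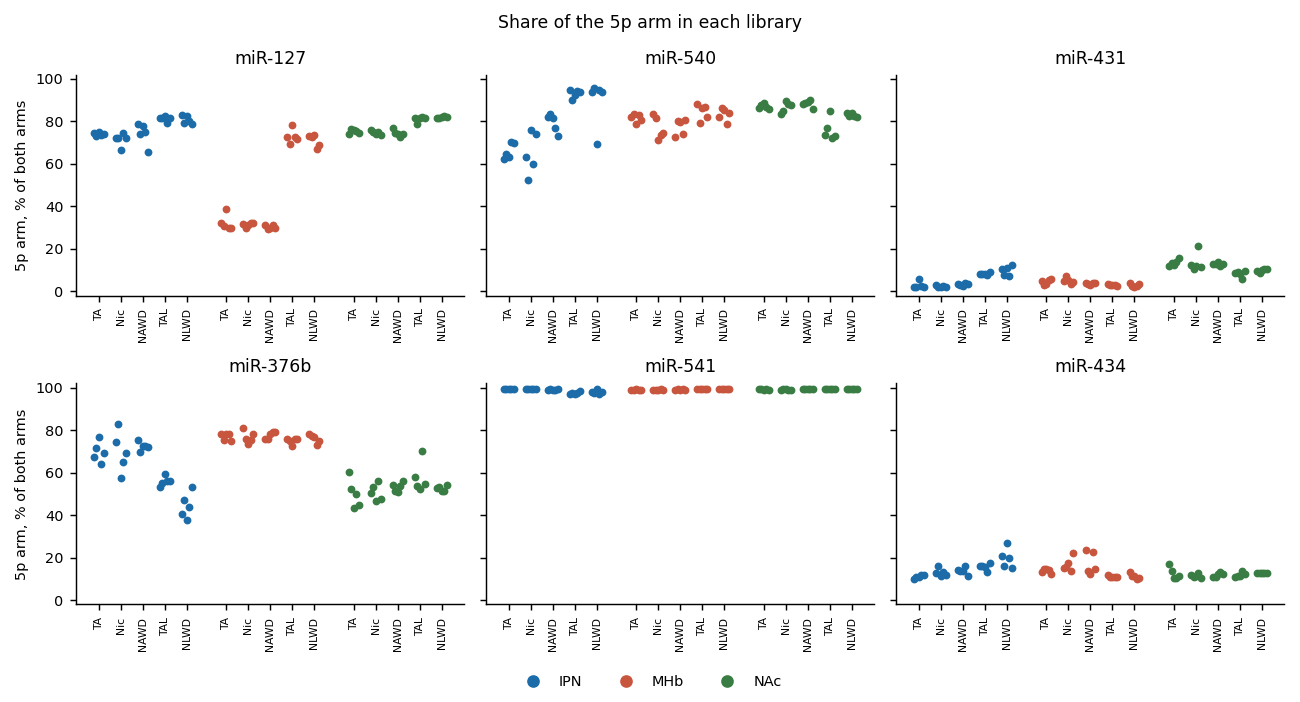
Share of the 5p arm in the reads of both arms, in percent, for selected hairpins in single libraries of each region and group. For miR-127 the TA, Nic and NAWD libraries of the MHb lie between 29.6% and 38.7%, and all other libraries at 65.5% or higher.

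Most other hairpins kept their major arm across regions. Of 43 hairpins with at least 10 RPM for both arms together in each region, 23 gave mostly the 3p strand in all regions of TA mice, 16 gave mostly the 5p strand, and 4 changed, namely miR-127, miR-380, miR-485 and miR-667. For miR-667 the arms were near even in the IPN, with means of 18.4 RPM for 5p and 18.5 RPM for 3p. By mean RPM its 3p strand thus led in every region. For miR-380 the 5p and 3p means were 596 and 498 RPM in the IPN and 335 and 384 RPM in the MHb. Neither miR-380 nor miR-667 was called for arm balance between MHb and IPN. The balance was tested as log2 of 5p over 3p, with 1 RPM added to each arm, over 38 cluster hairpins that reached the minimum. Between MHb and IPN, 2 hairpins leaned more to 5p in the MHb and 2 less, with 7.73% and 5.52% of 181 hairpins called. The latter were miR-127 (-2.59 ± 0.14, adjusted p = 4.6e-12 from limma) and miR-541 (-0.61), the former miR-540 (1.16) and miR-341 (0.87). This count of 4 was 8 without IPN TA library 3, and 2 without IPN TA library 1 or 2 or MHb TA library 2 or 4. Between IPN and NAc, 8 leaned more to 5p in the IPN and 4 less, with 17.1% and 9.94% of all hairpins called. miR-431 (-2.27) and miR-540 (-1.76) had the largest falls in 5p and miR-376a (1.48) and miR-376b (1.20) the largest rises. Between MHb and NAc, 5 were higher and 3 lower, with 7.73% and 5.52% of all called, and here too miR-127 came first (-2.69) and miR-376b was highest (1.72), with 5 calls without NAc TA library 4.

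Chronic nicotine alone left the cluster without a call in any region. In the IPN 0 of 87 members were called between Nic and TA, by limma with 4 factors of unwanted variation, against 0% of all 970 miRNAs, in the MHb 0 of 86 against 0% of 838 and in the NAc 0 of 90 against 0.209% of 957. At an unadjusted p under 0.05 there were 9, 12 and 17 such members, against 115, 113 and 115 of all miRNAs tested. edgeR called 0 members in each region and DESeq2 called 0, 1 and 0. In the MHb 1 member was called without Nic library 3 or TA library 5. The members with the smallest p were miR-495-5p (log2 difference -0.62, adjusted p = 0.047 from limma) and miR-341-5p (0.68, adjusted p = 0.087) in the IPN, miR-341-3p (-0.34, adjusted p = 0.018) and miR-434-3p (-0.21, adjusted p = 0.10) in the MHb, and miR-411-5p (-0.25, adjusted p = 0.11) and miR-541-3p (0.33, adjusted p = 0.12) in the NAc. Values of miR-341-5p in the IPN were 0.230 to 0.929 RPM in TA and 1.3 to 2.24 RPM in Nic libraries, which did not overlap.

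After 48 hours of withdrawal 5 members rose in the IPN, led by miR-540-5p. Compared with TA, 5 of 87 members were higher in NAWD and 0 were lower, with 4.33% and 0.309% of all miRNAs called, so that the share of members that rose, 5.75%, was near that of all miRNAs. They were miR-540-5p and miR-337-5p of the Meg3 side, both arms of miR-341 in Rian and miR-329-5p of the Mirg side. The median log2 difference was 0.11 over the members and 0.06 over all miRNAs, and 54 of 87 members had a positive difference. The balance of calls depended on the scaling, with 4 higher and 5 lower after quantile normalization, 4 and 4 by edgeR and 3 and 7 by DESeq2. The paper of the study, with its own model, lists members as lower in the IPN, among them miR-136-5p, miR-377-3p, miR-379-5p and miR-485-5p. The count was 19 with a pseudocount of 0.1, with 1 factor fewer or with only both groups in the fit, 8 without factors, and 3 with no filter or a mean of at least 10 RPM. It also depended on single libraries, with 3 members called without NAWD library 3, 13 without TA library 3 and 9 without TA library 5.

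miR-540-5p showed the largest rise. Its values in the IPN were 36.1, 40.8, 39.2, 54.9 and 48.1 RPM in TA, 38.2, 43.0, 64.0, 41.7 and 64.0 RPM in Nic, and 165, 160, 122, 122 and 90.8 RPM in NAWD libraries. Every NAWD library was above every TA and Nic library, and TA and Nic overlapped. Such a lack of overlap with TA was not rare, with 19 of 87 members and 11.3% of all miRNAs wholly above it. The log2 difference between NAWD and TA was 1.27 ± 0.16 with an adjusted p of 2.5e-05 from limma, and it was called in all 22 alternatives. Its other arm, miR-540-3p, was 33.0 ± 3.75 RPM in NAWD and 22.2 ± 0.92 RPM in TA, a difference that was not called (0.38 ± 0.14, adjusted p = 0.075 from limma). The 5p share of the hairpin was 62.4% to 70.1% in TA and 73.2% to 83.5% in NAWD. The arm balance, tested without the factors used for single strands, was not called (1.008 ± 0.25, adjusted p = 0.014 from limma).

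Both strands of miR-341 were higher in NAWD than in TA libraries. miR-341-3p had 843, 792, 476, 953 and 649 RPM in TA and 1231, 1423, 1253, 1229 and 1046 RPM in NAWD libraries, with no overlap and a log2 difference of 0.77 ± 0.10 (adjusted p = 2.5e-05 from limma). miR-341-5p was near the lower end of detection, at 0.230 to 0.929 RPM in TA and 1.70 to 3.14 RPM in NAWD (0.93 ± 0.19, adjusted p = 0.0027 from limma). The Nic libraries lay between 1.3 and 2.24 RPM, above TA and overlapping NAWD. miR-341-5p was not called between NAWD and Nic, so its rise is not shown to belong to withdrawal. miR-329-5p rose from 512 to 760 RPM to 918 to 1056 RPM (0.59 ± 0.11, adjusted p = 0.0011 from limma), while its 3p arm was 8.50 ± 0.75 RPM in NAWD and 11.1 ± 4.22 RPM in TA, a difference of -0.60 that was not called (adjusted p = 0.035 from limma). miR-337-5p was 103 to 157 RPM in TA and 168 to 189 RPM in NAWD (0.41 ± 0.10, adjusted p = 0.00996 from limma), just inside the threshold, and was called in 6 of 22 alternatives. miR-337-3p was not called (0.29, adjusted p = 0.33 from limma).

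Compared with Nic, NAWD libraries of the IPN had 7 of 87 members higher and 3 lower, with 4.95% and 0.928% of all miRNAs called. Quantile normalization gave 4 higher and 5 lower, edgeR 3 and 4, and DESeq2 4 and 6. The count of 10 was 1 without factors, 6 with no filter or with only both groups in the fit, 6 without NAWD library 2 or 4 and 18 without Nic library 5. The 2 comparisons share the NAWD libraries and the factors. miR-540-5p (1.22), miR-341-3p (0.80), miR-329-5p (0.61) and miR-337-5p (0.45) were again higher, as were miR-485-3p (0.45), miR-127-5p (0.43) and miR-433-5p (0.43). The lower members were miR-539-5p (fell by 0.51), miR-136-5p (fell by 0.51) and miR-541-5p (fell by 0.35). The mean of miR-539-5p was 65.6 RPM in NAWD and 62.7 RPM in Nic, and without the factors its difference was 0.079. The summed oligodendrocyte miRNAs moved with withdrawal in the IPN, at 7267 to 10618 RPM in NAWD, above every TA (3133 to 5476) and Nic (4396 to 6447) library, while Mbp mRNA was 671 to 2005 TPM in NAWD and 3314 to 6609 TPM in TA. Neuronal miRNAs were 179906 to 193090 RPM in NAWD and 191916 to 212382 RPM in TA, and the part of cell makeup in the rises was not tested.

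In the MHb 2 members were called lower after withdrawal. Compared with TA, 0 of 86 members were higher in NAWD and 2 were lower, with 1.43% and 1.31% of all 838 miRNAs called. edgeR called 1 higher and 3 lower and DESeq2 1 and 5, and without NAWD library 5 there were 7 calls. Without factors or with quantile normalization 1 was called. Every NAWD library was below every TA library for 9 members, against 3.94% of all miRNAs, and above for 0, against 2.51%. The median log2 difference was -0.08 over the members and 0.01 over all, and without factors -0.23 and -0.08. The paper of the study, with its own model, lists further members as lower in the MHb, among them miR-377-3p, miR-382-3p and miR-410-3p. miR-136-5p had 222, 163, 203, 201 and 168 RPM in TA, 178, 191, 235, 222 and 189 RPM in Nic, and 107, 117, 107, 65.6 and 121 RPM in NAWD libraries. All NAWD libraries were below all TA and Nic libraries, and the log2 difference from TA was -0.72 ± 0.11 (adjusted p = 0.00049 from limma), called in all 22 alternatives. Its partner strand miR-136-3p, which is far more abundant, was 4203 ± 863 RPM in NAWD and 5309 ± 695 RPM in TA, and was not called (-0.16, adjusted p = 0.25 from limma).

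Among members of the Mirg side, miR-495-3p had 408, 466, 481, 469 and 479 RPM in TA and 166, 299.5, 277, 159 and 345 RPM in NAWD libraries. The groups did not overlap (log2 difference -0.55 ± 0.09, adjusted p = 0.00063 from limma), although the Nic libraries ranged from 195 to 647 RPM across both. Without the factors of unwanted variation the difference was larger, at -0.95, with an adjusted p of 0.058 from limma. The opposite strand, miR-495-5p, averaged under 1 RPM in both groups and was not called (-0.05, adjusted p = 0.91 from limma).

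Compared with Nic, 1 of 86 members was higher in NAWD libraries of the MHb and 5 were lower, with 3.34% and 3.7% of all miRNAs called. DESeq2 called 3 higher and 7 lower, and the count was 2 without factors, 3 with a pseudocount of 0.1 or no filter, 3 without NAWD library 3 and 11 without NAWD library 5. miR-377-3p (fell by 0.96), miR-136-5p (fell by 0.86), miR-495-3p (fell by 0.53), miR-376a-3p (fell by 0.43) and miR-434-5p (fell by 0.32) were lower and miR-341-3p was higher (0.39). The means of miR-341-3p were 869 RPM in NAWD, 680 RPM in Nic and 902 RPM in TA libraries, with overlap. Against TA it was not called (0.05, adjusted p = 0.77 from limma). miR-377-3p was a low member, at 10.2 to 22.2 RPM in Nic and 3.99 to 10.9 RPM in NAWD, groups that overlapped slightly. The summed level of the cluster in the MHb was 45173 to 54659 RPM in TA, 41967 to 54590 RPM in Nic and 30839 to 54126 RPM in NAWD libraries, with NAWD library 4 the lowest. Markers of other cells moved with withdrawal in the MHb. Microglial miRNAs (2 of 2 listed) were 23.2 to 31.8 RPM in NAWD, below every TA (32.1 to 43.2) and Nic (38.1 to 57.2) library. Oligodendrocyte miRNAs (2 of 2) were 2854 to 4630 RPM in NAWD, below every Nic library (4826 to 6093) and overlapping TA (4337 to 6018), while Mbp mRNA was 260 to 601 TPM in TA and 942 to 1488 TPM in NAWD. Neuronal miRNAs overlapped between the 3 groups, and the part of these cells in the falls was not tested.

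GC content moved with the MHb difference. Over 82 matched members Spearman's rho between GC content and the log2 difference of NAWD and TA was 0.56, and over the 706 matched miRNAs tested it was 0.35, as a description over miRNAs that share their libraries. In the NAc the values were -0.42 over 86 members and -0.22 over 817 miRNAs, and in the IPN 0.16 over 83 members and 0.09 over 827. With a slope on GC content removed from each library, 2 members were called in the MHb and 5 in the IPN. The part of GC content in the calls was not tested.

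**Figure D4:**
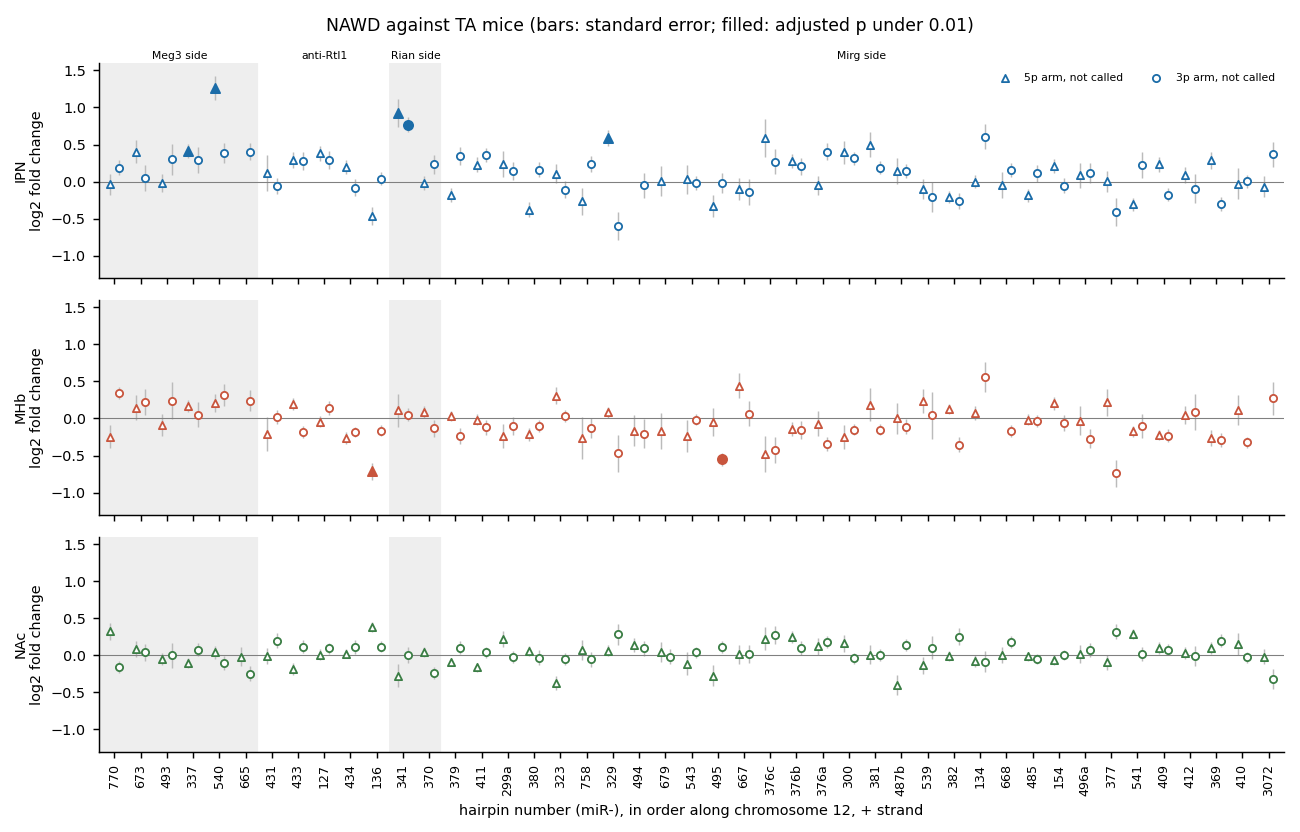
log2 difference between NAWD and TA for each member tested, in genome order, in IPN, MHb and NAc, with bars of 1 SE, triangles for 5p arms, circles for 3p arms and filled points for calls at an adjusted p under 0.01 from limma. The IPN has 5 members called higher, led by miR-540-5p at 1.27, the MHb 2 called lower, led by miR-136-5p at -0.72, and the NAc 0.

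In the NAc acute withdrawal gave no call among the members. Between NAWD and TA 0 of 90 were called against 0.104% of 957 miRNAs, and between NAWD and Nic 0 of 90 against 0.209%. There were 18 and 15 members at an unadjusted p under 0.05, edgeR called 0 in both, and DESeq2 called 2 and 1. Without the NAWD library labelled 3, 1 member was called against Nic. The member closest to the threshold was miR-136-5p, at 214 to 264 RPM in TA and 286 to 337.5 RPM in NAWD (log2 difference 0.38, adjusted p = 0.012 from limma), groups that did not overlap, and miR-541-5p came next (0.29, adjusted p = 0.068). Against Nic the smallest p belonged to miR-539-5p (-0.48, adjusted p = 0.045) and miR-412-5p (0.28, adjusted p = 0.11).

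The response to withdrawal was then compared between regions directly, as the difference of the NAWD and TA differences. Between IPN and MHb, 4 of 85 members had a higher response in the IPN and 0 a lower, with 2.3% and 0.485% of 825 miRNAs called. These were miR-540-5p (1.06, adjusted p = 0.0025 from limma), miR-376a-3p (0.75), miR-341-3p (0.72) and miR-300-3p (0.47). Between IPN and NAc, 6 of 87 were higher in the IPN and 3 lower, with 4.31% and 1.77% of 905 called. miR-540-5p (1.23), both arms of miR-341 (1.20 for 5p and 0.76 for 3p), miR-665-3p (0.65), miR-329-5p (0.53) and miR-337-5p (0.51) responded more in the IPN, and miR-329-3p (-0.88), miR-136-5p (-0.85) and miR-541-5p (-0.59) less. Between MHb and NAc, 2 of 86 were higher in the MHb and 5 lower, with 2.81% and 3.3% of 818 called. miR-136-5p had the strongest difference (-1.096 ± 0.13, adjusted p = 1.6e-06 from limma), lower after withdrawal in the MHb while its NAc values were higher in NAWD than in TA. It was followed by miR-377-3p (-1.06), miR-495-3p (-0.66), miR-376a-3p (-0.52) and miR-541-5p (-0.46), with miR-323-5p (0.68) and miR-770-3p (0.50) the other way. With quantile normalization the calls were 2 and 1, 5 and 7, and 2 and 2 in the 3 comparisons. Without factors the counts of 4, 9 and 7 were 7, 2 and 2, and with a pseudocount of 0.1 the first was 8 and the last 4. With a mean of at least 10 RPM the first was 1. The IPN and MHb count of 4 became 8 without IPN TA library 5 or MHb NAWD library 4 and 7 without MHb NAWD library 5.

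Arm balance was not called to change with acute withdrawal for any cluster hairpin. This held for 0 of 38 hairpins in the IPN, against 2.21% of 181 hairpins called either way, 0 of 37 in the MHb against 0% of 182, and 0 of 37 in the NAc against 0% of 171. The cluster hairpins with an unadjusted p under 0.05 numbered 11, 12 and 5, against 63, 56 and 28 of all hairpins tested. In the IPN 1 was called without TA library 3. Nearest to the threshold were miR-369 (0.58, adjusted p = 0.013 from limma) in the IPN, miR-377 (1.17), miR-770 (-0.83) and miR-136 (-0.55), each with an adjusted p of 0.024, in the MHb, and miR-487b (-0.60, adjusted p = 0.13) and miR-377 (-0.41, adjusted p = 0.25) in the NAc.

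After 4 weeks of withdrawal no member was called against TAL. In the IPN 0 of 89 were called against 0% of 1044 miRNAs, in the MHb 0 of 90 against 0% of 1108, and in the NAc 0 of 90 against 0.0867% of 1154. The members at an unadjusted p under 0.05 numbered 16, 6 and 16. edgeR called 0, 0 and 1 members and DESeq2 called 0, 0 and 3. In the NAc 5 members were called without TAL library 5 and 1 without TAL library 3 or NLWD library 2. In the IPN miR-540-5p was 500 to 874 RPM in NLWD and 322 to 562 RPM in TAL (log2 difference 0.61 ± 0.18, adjusted p = 0.19 from limma), with overlap, and miR-341-5p was 4.32 to 7.82 RPM against 2.80 to 4.11 RPM (0.60 ± 0.19, adjusted p = 0.21), without overlap. In the NAc miR-540-5p (0.57, adjusted p = 0.014) and miR-382-3p (-0.24, adjusted p = 0.014) were nearest to the threshold, and in the MHb miR-127-3p (0.26) and miR-341-5p (-0.43), both with an adjusted p of 0.64. One IPN library stood apart, NLWD 3, with 12.6% of its miRNA reads from the cluster against 7.57% to 9.68% in the other NLWD libraries, and neuronal miRNAs in the IPN were as low as 75440 RPM in a NLWD library. Without NLWD libraries 1 and 3, chosen after the values were seen, 0 members were called.

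**Figure D5:**
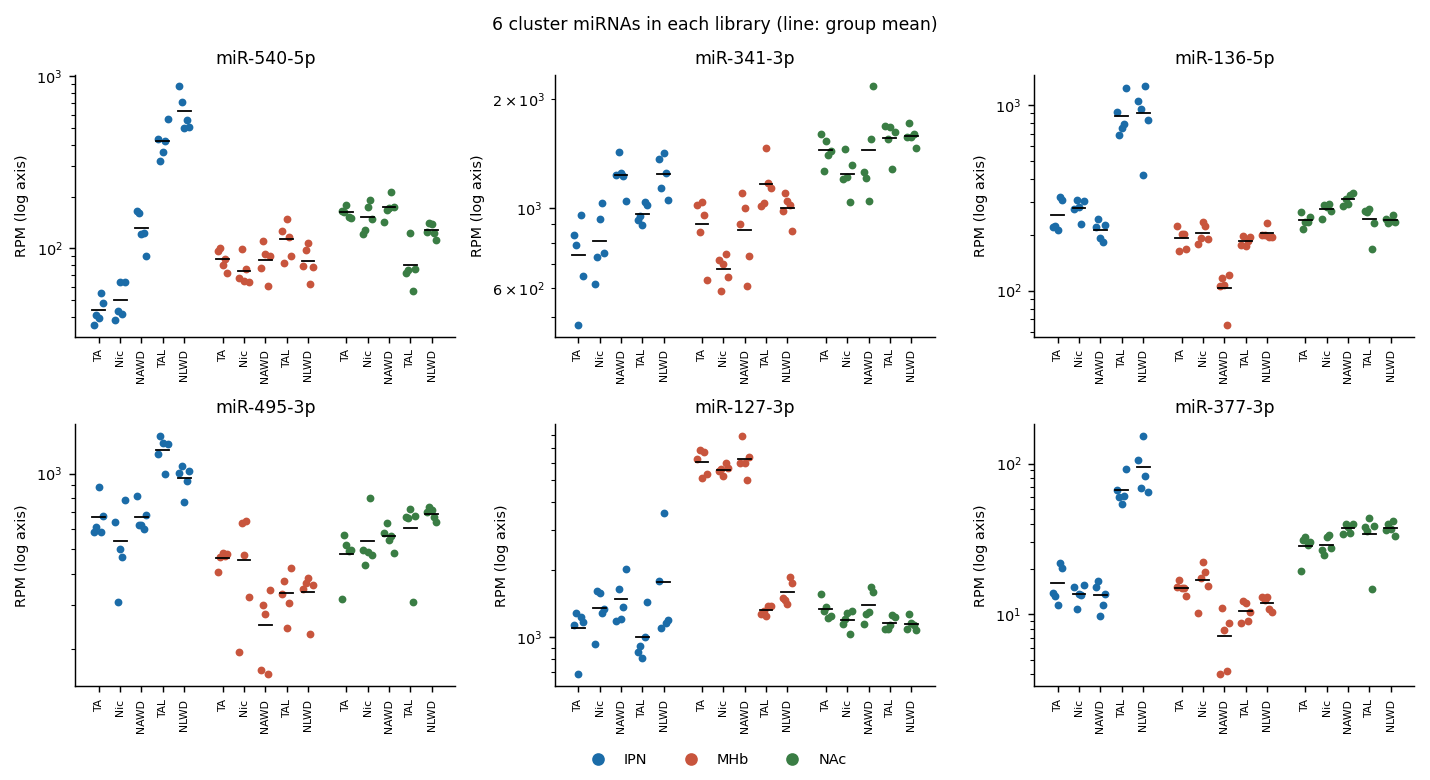
RPM in single libraries of selected members by group and region, on a log axis, with a line at the group mean. In the IPN miR-540-5p lies at 36.1 to 54.9 RPM in TA, 90.8 to 165 RPM in NAWD and 322 to 562 RPM in TAL libraries.

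Members also varied together between libraries of a group, most in the MHb. Over 69 abundant members in the 25 MHb libraries, each expressed as deviation from its group mean, the median Pearson r of the 2346 member pairs was 0.49, and 0.08 over 47895 pairs of other miRNAs. Without the NAWD libraries these medians were 0.32 and 0.05. They were 0.16 and 0.03 in the IPN and 0.23 and 0.11 in the NAc. All pairs share libraries, depth and the sum of the RPM, so these values are descriptions. In the MHb, pairs from the same position group (median 0.51) and from different groups (0.47) were alike in size, as were the strands of a single hairpin (0.49 over 26 hairpins). In the IPN and NAc the strands of a single hairpin had medians of 0.034 and 0.030, below those of all member pairs there. Pairs from the same and from different position groups had medians of 0.12 and 0.19 in the IPN and 0.26 and 0.22 in the NAc.

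The long transcripts of the domain were measured in mRNA libraries of the same tissues, by limma on log2(TPM + 1) with calls at an adjusted p under 0.01 and a fold over 2. NAWD and TA had 5 and 5 such libraries in the IPN, 4 and 4 in the MHb, and 4 and 5 in the NAc. In the IPN Rian fell in NAWD, from 768, 897, 322, 405 and 596 TPM in TA to 141, 153, 198, 101 and 117 TPM. With factors its log2 difference was -1.07 ± 0.15 (adjusted p = 0.0047 from limma), smaller than the means of 598 and 142 TPM show. Of all 18028 genes 0.0277% were called lower and 0.0721% higher. For 22.1% of all genes every NAWD library was below every TA library, so the lack of overlap was common in this comparison. Of the 6 transcripts 0 were called with the replicate number in the model, and also in 7 of the 10 fits that left out 1 library. Mirg (-0.95, adjusted p = 0.12), Meg3 (-0.28, adjusted p = 0.53), Rtl1 (0.18), Dlk1 (0.17) and Dio3 (0.06) were not called there. Mirg (means of 43.3 TPM in TA and 16.2 TPM in NAWD) and Meg3 (151 and 77.5 TPM) did not overlap either. In the MHb 0 of the 6 were called, against 0.776% of 17013 genes, with Dlk1 at 0.52, Meg3 at -0.59, Rian at -0.24, Mirg at 0.12, Rtl1 at 0.04 and Dio3 at 0.0037. In the NAc 0 were called, against 0% of 17182, with Dlk1 at -0.64, Meg3 at -0.38, Dio3 at -0.41, Mirg at 0.76, Rtl1 at 0.12 and Rian at 0.02. At an unadjusted p under 0.05 there were 2, 2 and 1 of the 6 in IPN, MHb and NAc, against 2794, 3151 and 3688 of all genes tested.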

How the data were processed

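The authors trimmed adapters with cutadapt 1.11 and mapped reads to mm10 with Bowtie 1.1.2 without mismatches. They apportioned reads that fitted several miRNAs. The values they deposited are RPM, reads of a miRNA over all miRNA reads of the library, rescaled to a fixed total. Their mRNA values were deposited as TPM (STAR 2.5.3a, RSEM 1.3.0, per the submitters' processing notes). The deposited total counts of miRNA reads per library turned RPM into whole reads, within 0.02 for 100% of values in each region, and gave the depth. No fractions of reads showed in the deposited values, so the extent of apportioning cannot be seen from them. Close paralogs such as the miR-376 and miR-329 relatives can exchange reads where they were apportioned.

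RPM was compared on the log2(RPM + 1) scale, which understates the change of members with few reads, by limma 3.58.1 in R 4.3.3 with a trend and RUVs factors (4 in IPN and MHb, 3 in NAc, and 1, 1 and 2 for NLWD against TAL), keeping miRNAs that in every group had reads in a fraction of 0.5 or more of its libraries. Regions were compared over TA libraries without factors. Responses of regions were compared in a joint fit. Arm balance needed a mean of 10 RPM for both arms together and 1 RPM for each, and was tested without factors and without a trend. TPM was compared with 2, 2 and 1 factors. Tests were two-sided, with adjusted p-values over all features. edgeR 4.0.16 and DESeq2 1.42.0 on whole reads, other pseudocounts, filters, normalizations and factors, a GC slope, a replicate block and leaving out each library were alternatives. Figures were drawn with matplotlib 3.10.9.

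The members, lists and tests were chosen with earlier results of these data known. Named were all called members where 8 or fewer were called, otherwise the 8 with the largest difference, the 2 with the smallest p where none was called, the 6 most abundant of each region, their other arms where tested, and the 6 long transcripts. Members named beyond this rule were chosen after their values were seen. Of 150 pairs of libraries within groups none agreed within counting noise (smallest chi-square per miRNA 25.8). NAc NAWD libraries are labelled 1, 3, 4, 5 and 6. Tables of the authors' own comparisons, with fold changes and FDR, were not used in the tests.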

Additional observations from a re-analysis of the deposited data

Results flagged for a closer look

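In 7 of 81 groups of 5 libraries, 1 library stood far from the other 4, where chance gives about 1 in 20. miR-136-5p was 65.6 RPM in MHb NAWD library 4, against 107 to 121 RPM in the others. miR-495-3p was 408 RPM in MHb TA library 1, against 466 to 481 RPM. miR-539-5p was 203 RPM in NAc Nic library 4, against 47.6 to 80.9 RPM. miR-540-5p was 123 RPM in NAc TAL library 3, against 56.8 to 75.6 RPM. miR-382-3p was 805 RPM in NAc TAL library 4, against 1524 to 1698 RPM. The summed level of the cluster was 87555 RPM in IPN TAL library 5, against 73097 to 76475 RPM, and 45173 RPM in MHb TA library 5, against 52542 to 54659 RPM.

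The response to acute withdrawal differed between regions for a number of members, by limma's test of the difference of log2 differences. IPN exceeded MHb for miR-540-5p (1.06), miR-376a-3p (0.75), miR-341-3p (0.72) and miR-300-3p (0.47). IPN exceeded NAc for miR-540-5p (1.23), miR-341-5p (1.20), miR-341-3p (0.76), miR-665-3p (0.65), miR-329-5p (0.53) and miR-337-5p (0.51), and was below it for miR-329-3p (-0.88), miR-136-5p (-0.85) and miR-541-5p (-0.59). MHb was below NAc for miR-136-5p (-1.10), miR-377-3p (-1.06), miR-495-3p (-0.66), miR-376a-3p (-0.52) and miR-541-5p (-0.46), and above it for miR-323-5p (0.68) and miR-770-3p (0.50).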

How the results depend on the processing

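Of 218 alternative counts of called members, 178 were within 1.5 times the reported count. For IPN NAWD against TA (5) the count was 19 with a pseudocount of 0.1, with 1 factor fewer or with only both groups, 3 with no filter or a mean of at least 10 RPM, 9 with quantile normalization, 8 without factors or by edgeR and 10 by DESeq2. For IPN NAWD against Nic (10) it was 6 with no filter or only both groups and 1 without factors. For MHb NAWD against TA (2) it was 1 with quantile normalization or without factors, 4 by edgeR and 6 by DESeq2. For MHb NAWD against Nic (6) it was 3 with a pseudocount of 0.1 or no filter, 2 without factors and 10 by DESeq2. DESeq2 gave 1 for MHb Nic against TA, 2 for NAc NAWD against TA (1 with only both groups), 1 for NAc NAWD against Nic and 3 for NAc NLWD against TAL (edgeR 1, pseudocount 0.1 2). The regional response counts became 8, 1 and 7 for IPN and MHb (pseudocount 0.1, mean of at least 10 RPM, no factors), 2 for IPN and NAc (no factors), and 4, 4 and 2 for MHb and NAc (pseudocount 0.1, quantile, no factors). MHb against IPN gave 60 in TAL libraries, arm balance in the IPN 2 at 100 RPM, MHb TAL against TA 2 with quantile normalization, and IPN long transcripts 2 without factors. The cause of these shifts was not tested.

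Same-numbered libraries did not deviate together (correlations -0.45 to 0.30 between groups). Such correlations cannot show whether libraries of the same number share animals or processing, and the labels give the number only. The tests treated the libraries as independent, with a replicate block as an alternative. With the replicate block the count was 5 for MHb TAL against TA, 5 for NAc TAL against TA, 0 for IPN long transcripts, and 10 for MHb NAWD against Nic with GC slope removed as well. Other counts with the block stayed within 1.5 times.

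Leaving out 1 library gave 3 to 13 calls for IPN NAWD against TA, 6 to 18 for IPN NAWD against Nic, 0 to 1 for MHb Nic against TA, 2 to 7 for MHb NAWD against TA, 3 to 11 for MHb NAWD against Nic, 0 to 1 for NAc NAWD against Nic and 0 to 5 for NAc NLWD against TAL. It gave 13 to 24 for MHb against IPN, 37 to 44 for IPN against NAc, 35 to 40 for MHb against NAc, 3 to 8, 6 to 11 and 5 to 10 for the regional responses, 2 to 8, 10 to 13 and 5 to 9 for arm balance between regions, 0 to 1 for arm balance in the IPN, 61 to 64, 4 to 10 and 5 to 23 for TAL against TA in IPN, MHb and NAc, and 0 to 1 for IPN long transcripts.

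Some differences changed sign. miR-539-5p between NAWD and Nic in the IPN was 0.079 without factors. With TAL libraries, MHb minus IPN was -0.082 for miR-341-5p, -1.90 for miR-540-5p, 0.32 for miR-380-5p, 0.86 for miR-382-5p, -0.90 for miR-299a-5p and 0.83 for miR-541-5p, and IPN minus NAc was 2.40 for miR-540-5p, 0.49 for miR-341-5p, 0.060 for miR-381-3p and 1.31 for miR-376b-3p. Of long transcripts that were not called, without factors Rtl1, Dio3 and Dlk1 in the IPN were -0.078, -0.097 and -0.67, Rian in the MHb 0.066, and Rtl1 and Rian in the NAc -0.29 and -0.79. With a pseudocount of 0.1, Dio3 in the MHb was -0.12 and Rtl1 and Rian in the NAc -0.053 and -0.047, and with the block Dio3 in the MHb was -0.023. Without single libraries, in the MHb Mirg was -0.052 to 0.51, Rian -0.35 to 0.057 and Dio3 -0.025 to 0.054, and in the NAc Mirg was -0.35 to 0.92, Rtl1 -0.30 to 0.22 and Rian -0.47 to 0.17.

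Depth was lowest in TA and Nic libraries of the MHb, where 1 RPM is few reads, so members such as miR-495-5p rest on single reads. Each library is a pool, and TAL and TA libraries differ in more than age.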
